A study of Mus musculus with 11 samples.

Results

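Globins and the proteins around them mark the erythroid branch of marrow, and 9 such genes were followed here through RNA sequencing of marrow cells that received mutant CSF3R and mutant CEBPA in different orders. The genes were chosen by symbol, out of 51912 genes in the count table, by a rule with no threshold on their values but with earlier results of these data known. They were the β-globins Hbb-bs and Hbb-bt, the α-globins Hba-a1 and Hba-a2, the transcription factor gene Klf1, the erythropoietin receptor gene Epor, and Slc4a1, Ermap and Car1. All 9 passed the filter on low counts. The study asked how the order in which the oncogenes are acquired changes marrow cells. The marrow came from C57BL/6 mice that expressed a Cre recombinase fused to an estrogen receptor domain (ERT2) from the Rosa26 locus. Animals across all experiments were 6 to 20 weeks old, and the marrow donors were healthy young adults within that range. Every library was made from lineage-negative cells that carried both retroviral vectors, one that was always on (marked by GFP) and one that Cre switches on (marked by a red protein), after 48 h in medium without added cytokines but with 4-hydroxytamoxifen, which activates Cre. In CSF3R-only (n = 4), the constant vector held CSF3R with the T618I mutation and the inducible vector was empty. In CSF3R-first (n = 3), the same constant vector was joined by inducible CEBPA with the V314VW mutation. In CEBPA-first (n = 4), CEBPA V314VW was constant and CSF3R T618I was inducible. No group was free of mutant CSF3R, so none shows untransduced marrow. The lineage cocktail used in such sorts commonly removes cells with the mature red cell antigen Ter119, so these libraries describe what remained or arose after the sort.

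Erythroid cells pass from progenitors that respond to erythropoietin to precursors that fill with hemoglobin, a tetramer of α- and β-globin chains around heme. KLF1 acts on the adult β-globin promoter and on many other red cell genes, and EPOR carries the survival signal of erythropoietin through JAK2 and STAT5. SLC4A1 (band 3) exchanges chloride and bicarbonate across the red cell membrane and anchors the skeleton beneath it, ERMAP is a membrane protein of the red cell with an immunoglobulin domain, and CAR1 hydrates carbon dioxide in the cytoplasm.

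The adult globins come as near-identical pairs, which limits what a count for a single copy means. The coding sequences of Hbb-bs and Hbb-bt, 441 bases without the stop codon in the GENCODE vM21 annotation of GRCm38, differed by 1 base, C417T, counted from the A of the start codon with the Hbb-bs base first. Those of Hba-a1 and Hba-a2, 426 bases long, differed by C381T, with the Hba-a1 base first. The 51 bases around each position are shown on the gene's strand because they are the only place where a read inside the coding sequence can tell the copies apart. Capitals mark the base that differs.

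Hbb-bs, chr7:103826668-103826718, minus strand: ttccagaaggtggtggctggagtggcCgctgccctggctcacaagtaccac
Hbb-bt, chr7:103812659-103812709, minus strand: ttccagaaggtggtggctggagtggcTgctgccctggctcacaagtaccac
Hba-a1, chr11:32284318-32284368, plus strand: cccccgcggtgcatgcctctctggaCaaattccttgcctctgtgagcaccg
Hba-a2, chr11:32297135-32297185, plus strand: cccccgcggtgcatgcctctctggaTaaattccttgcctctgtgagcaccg

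Of all 100-base stretches of their annotated transcripts, 49.7% of those of Hbb-bs and 54.8% of those of Hbb-bt also occur in the other β-globin gene. For Hba-a1 the share was 63.3%, and for Hba-a2 it was 79.5%. How such reads were assigned, or whether they were counted at all, is not given in the sources used here. Each single globin count is thus uncertain. The sums do not depend on the split of reads within a pair, but they would miss any shared reads left uncounted. Car1 shared 2.57% of its stretches with Gm5843, and Klf1, Epor, Slc4a1 and Ermap shared none. No exon of the 9 genes overlapped an exon of another annotated gene on either strand.

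The promoters of the genes carry different short motifs, and they are shown because the 9 genes moved by very different amounts. RefSeq promoters of GRCm38.p6 were at hand for 7 of the 9 genes, all but Slc4a1 and Car1. The 120 bases before the RefSeq start are printed for 5 of them, on the gene's strand. GENCODE places some starts elsewhere. By its coordinates the stretches of Hbb-bs and Hba-a1 lie inside the genes, and those of Hbb-bt and Klf1 lie partly inside. Capitals mark every match on either strand to CCNCNCCCN, the box that KLF factors bind. They also mark AGATAA, which GATA factors bind, and CCAAT, both on either strand. The TATA box, searched as TATAAA, was marked on the gene's strand alone.

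Hbb-bs, chr7:103827929-103828048, minus strand: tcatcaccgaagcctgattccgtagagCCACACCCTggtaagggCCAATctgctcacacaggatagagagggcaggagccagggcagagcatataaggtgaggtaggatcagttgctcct
Hbb-bt, chr7:103813924-103814043, minus strand: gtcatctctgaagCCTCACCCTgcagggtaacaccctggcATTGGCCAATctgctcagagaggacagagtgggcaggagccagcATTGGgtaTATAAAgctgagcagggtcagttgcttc
Hba-a1, chr11:32283552-32283671, plus strand: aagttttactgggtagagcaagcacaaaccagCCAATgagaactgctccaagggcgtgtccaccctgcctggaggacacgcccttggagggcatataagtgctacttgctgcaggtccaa
Klf1, chr8:84901862-84901981, plus strand: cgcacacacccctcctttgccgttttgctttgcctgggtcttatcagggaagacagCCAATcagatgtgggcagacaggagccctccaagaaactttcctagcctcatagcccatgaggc
Epor, chr9:21963577-21963696, minus strand: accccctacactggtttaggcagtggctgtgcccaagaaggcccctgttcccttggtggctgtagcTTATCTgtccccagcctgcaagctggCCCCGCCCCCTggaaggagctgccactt

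In the 300-base windows that RefSeq gives, from 250 bases before the start to 50 after it, CCNCNCCCN was present on either strand for Hbb-bs, Hbb-bt and Epor, and in 49.4% of 32851 promoters in all. CCAAT was present in 6 of the 7 windows (all but Epor) and in 37.4% of all promoters. AGATAA was found in the windows of Hbb-bs and Epor and in 11.2% of all. TTGCNNAA, a core that C/EBP proteins bind, was found only in that of Hbb-bs among the 7, outside the stretch printed, and in 10.8% of all. TATAAA lay in that of Hbb-bt alone and in 8.32% of all. These matches describe the letters of the windows and do not show that a factor was bound.

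The libraries held 47905747 to 72268346 counts, and the 4 globin genes together took less than 0.03% of any of them. Levels are given as CPM, that is counts scaled to a fixed library size, over library sizes scaled by edgeR's TMM method. Counts of called markers stand beside the shares of all tested genes, by an edgeR adjusted p under 0.05. In CEBPA-first, 36.6% were lower and 35.4% higher against CSF3R-only, and 24.3% and 24% against CSF3R-first. Among the markers of other cell types, all 12 megakaryocyte and platelet genes were called lower in CEBPA-first than in either other group. Their summed levels were 1019 to 1381 CPM in CSF3R-only, 375 to 596 CPM for CSF3R-first, and 124 to 168 CPM for CEBPA-first. Of 12 neutrophil genes, 9 were lower and 3 higher in CEBPA-first than in each other group, at summed levels of 26740 to 31970, 17910 to 27890 and 11540 to 13360 CPM. Of 9 monocyte and macrophage genes, 7 were lower and 2 higher in CEBPA-first against CSF3R-only, and 5 lower and 0 higher against CSF3R-first. Their summed levels, of which F13a1 made up the largest share, overlapped between the groups (5670 to 6209, 4061 to 6751 and 3991 to 5833 CPM), as did those of 10 mast cell and basophil genes in the groups that carried CEBPA (1402 to 1745 and 1585 to 2039 CPM, against 2187 to 3432 in CSF3R-only). The 6 eosinophil genes summed to 245 to 365, 60.8 to 140 and 30.6 to 38.3 CPM, with 5 lower and 0 higher against CSF3R-only. Of the 9 stem and multipotent progenitor genes, 4 were lower and 4 higher against CSF3R-only, and 4 lower and 3 higher against CSF3R-first. Ly6a made up the largest share of their sums of 437 to 641, 290 to 322 and 157 to 167 CPM. Against CSF3R-only, Slamf1 (-2.78), Ly6a (-2.67), Cd34 (-2.31) and Procr (-2.07) were lower, while Mecom (6.47), Hlf (2.26), Flt3 (1.495) and Kit (0.33) were higher. F13a1 and the stem and multipotent progenitor genes named here were picked after their values were seen. The 7 T and NK cell genes summed to at most 0.883 CPM, and Cd3e, Trbc1, Trbc2 and Ncr1 among them had no count. The sum of 8 B cell genes was higher in CEBPA-first, at 10.1 to 11.4 CPM in CSF3R-only, 19.2 to 23.5 CPM for CSF3R-first and 64.1 to 85.3 CPM for CEBPA-first, without overlap. Most of it was Ighm, named after its values were seen, with a log2 fold change of 3.32 against CSF3R-only (edgeR adjusted p = 2.8e-10). Of the 3 B cell genes tested, 2 were higher and 1 lower in that comparison. Cd79b (0.82) was the other higher one, and Cd79a (-2.21) was lower. Pax5, Ebf1 and Ms4a1 were at or near 0 counts in every group. The part of these shifts in the results for the 9 genes was not tested, and in bulk libraries fewer erythroid cells and less RNA per cell cannot be told apart.

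Hbb-bs (ENSMUSG00000052305, chromosome 7, 103826534 to 103828096) was at 54.5, 52.0, 66.5 and 65.1 CPM in CSF3R-only replicates A to D. It was at 22.6, 43.7 and 66.2 CPM in CSF3R-first replicates A to C. In CEBPA-first it was at 0.924, 1.961, 2.29 and 2.18 CPM. Every CEBPA-first library thus lay far below every other library, while CSF3R-first reached from well under CSF3R-only up to its top. The log2 fold change of CEBPA-first was -5.01 against CSF3R-only (standard error 0.33, edgeR adjusted p = 4.2e-08) and -4.58 against CSF3R-first (standard error 0.34, edgeR adjusted p = 8.2e-07).

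Hbb-bt (ENSMUSG00000073940, chromosome 7, 103812524 to 103813996) fell less. Its levels were 60.7, 73.6, 96.5 and 76.7 CPM in CSF3R-only, 29.0, 48.5 and 95.5 in CSF3R-first, and 5.08, 7.43, 8.77 and 8.21 in CEBPA-first. CEBPA-first again lay below every other library, but it kept more of this copy than of Hbb-bs in each of its libraries. The log2 fold changes were -3.38 and -2.97 (standard errors 0.32 and 0.32, edgeR adjusted p = 8.0e-07 and 1.8e-05).

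The α-globin genes fell about as far as Hbb-bs, and Hba-a2 had the lowest log2 fold change of the 9 genes against either group. Hba-a1 (ENSMUSG00000069919, chromosome 11, 32283511 to 32284465) was at 53.9, 57.8, 74.1 and 66.1 CPM in CSF3R-only, at 21.4, 39.2 and 68.2 in CSF3R-first and at 1.11, 2.88, 2.55 and 2.15 in CEBPA-first. Hba-a2 (ENSMUSG00000069917, chromosome 11, 32296489 to 32297298) was at 21.8, 23.7, 30.4 and 28.4 CPM, at 7.96, 17.9 and 27.1, and at 0.377, 0.682, 1.02 and 0.549. In both genes no CEBPA-first library came near the lowest library of the other groups. Against CSF3R-only, the log2 fold changes were -4.86 for Hba-a1 and -5.33 for Hba-a2 (standard errors 0.35 and 0.38, edgeR adjusted p = 9.0e-08 and 7.3e-08), the latter a 40.3-fold difference. Against CSF3R-first they were -4.31 and -4.77 (edgeR adjusted p = 2.0e-06 and 1.6e-06).

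The sum of the 4 globin genes does not depend on how reads were split within a pair, but would miss any shared reads left uncounted. It reached 225 ± 33.8 CPM for CSF3R-only (mean ± SD, n = 4), 162 ± 88.7 CPM for CSF3R-first (n = 3) and 12.04 ± 3.12 CPM for CEBPA-first (n = 4). On the log2(CPM + 0.5) scale CEBPA-first was 18.4-fold lower than CSF3R-only and 12.01-fold lower than CSF3R-first (log2 differences of -4.2 and -3.59, two-sided exact permutation p = 0.0286 for each, the smallest these group sizes allow). All 4 CEBPA-first libraries lay below all others in both comparisons. CSF3R-first and CSF3R-only differed by -0.61 (exact permutation p = 0.171) and overlapped. The α-globin pair alone was 27.8-fold lower against CSF3R-only and the β-globin pair 14.3-fold.

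Slc4a1 (ENSMUSG00000006574, chromosome 11, 102348824 to 102366203), the band 3 anion exchanger, behaved in size like the globins. It was at 32.4, 30.2, 43.3 and 40.3 CPM in CSF3R-only, at 11.7, 25.1 and 36.7 in CSF3R-first and at 0.599, 1.961, 1.59 and 1.03 in CEBPA-first. Even the lowest CSF3R-first library was far above the highest CEBPA-first library. The log2 fold changes were -4.83 and -4.25 (standard errors 0.38 and 0.38, edgeR adjusted p = 1.7e-07 and 3.7e-06).

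Ermap (ENSMUSG00000028644, chromosome 4, 119175457 to 119190011) took a middle place. It was at 23.3, 27.9, 46.2 and 30.5 CPM in CSF3R-only, at 11.7, 27.7 and 54.5 in CSF3R-first and at 5.46, 6.21, 6.47 and 4.88 in CEBPA-first. The CEBPA-first libraries were close to each other and below all others, while CSF3R-first enclosed the whole range of CSF3R-only. The log2 fold changes were -2.48 and -2.45 (standard errors 0.37 and 0.39, edgeR adjusted p = 4.6e-05 and 0.00031). Without CSF3R-first replicate C the second was -1.79 (edgeR adjusted p = 0.00088).

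Car1 (ENSMUSG00000027556, chromosome 3, 14766216 to 14808368), the carbonic anhydrase of red cells, fell less again. Its levels were 21.3, 43.8, 46.3 and 29.0 CPM in CSF3R-only, 16.2, 29.8 and 69.1 in CSF3R-first and 12.96, 12.5, 16.1 and 15.8 in CEBPA-first. The highest CEBPA-first library and the lowest CSF3R-first library were nearly level. The log2 fold changes were -1.29 and -1.42 (standard errors 0.36 and 0.38, edgeR adjusted p = 0.0058 and 0.0084). The second rested on CSF3R-first replicate C, without which it was -0.69 (edgeR adjusted p = 0.074).

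Klf1 (ENSMUSG00000054191, chromosome 8, 84901928 to 84905291) was at 19.7, 25.6, 33.9 and 22.4 CPM in CSF3R-only, at 11.1, 21.3 and 34.6 in CSF3R-first and at 10.3, 10.9, 11.5 and 15.1 in CEBPA-first. Its fall in CEBPA-first was small beside that of the globins, with log2 fold changes of -1.08 and -0.90 (standard errors 0.28 and 0.29, edgeR adjusted p = 0.0032 and 0.023). CEBPA-first did not overlap CSF3R-only but did overlap CSF3R-first. The call against CSF3R-first was lost without CSF3R-first replicate C (-0.44, edgeR adjusted p = 0.19), without CEBPA-first replicate A (-0.84, edgeR adjusted p = 0.056) and without CEBPA-first replicate B (-0.86, edgeR adjusted p = 0.058).

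Epor (ENSMUSG00000006235, chromosome 9, 21958897 to 21963506) was the only one of the 9 genes not called. It was at 5.88, 9.69, 12.9 and 9.76 CPM in CSF3R-only, at 3.39, 7.43 and 11.1 in CSF3R-first and at 4.50, 5.75, 5.95 and 7.44 in CEBPA-first, so that all 3 groups overlapped. The log2 fold change was -0.69 against CSF3R-only (95% interval -1.28 to -0.09 from the standard error, edgeR adjusted p = 0.056) and -0.31 against CSF3R-first (-0.95 to 0.33, edgeR adjusted p = 0.47). The first lay at the threshold, and 8 of the alternatives tried brought it below 0.05.

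**Figure D1:**
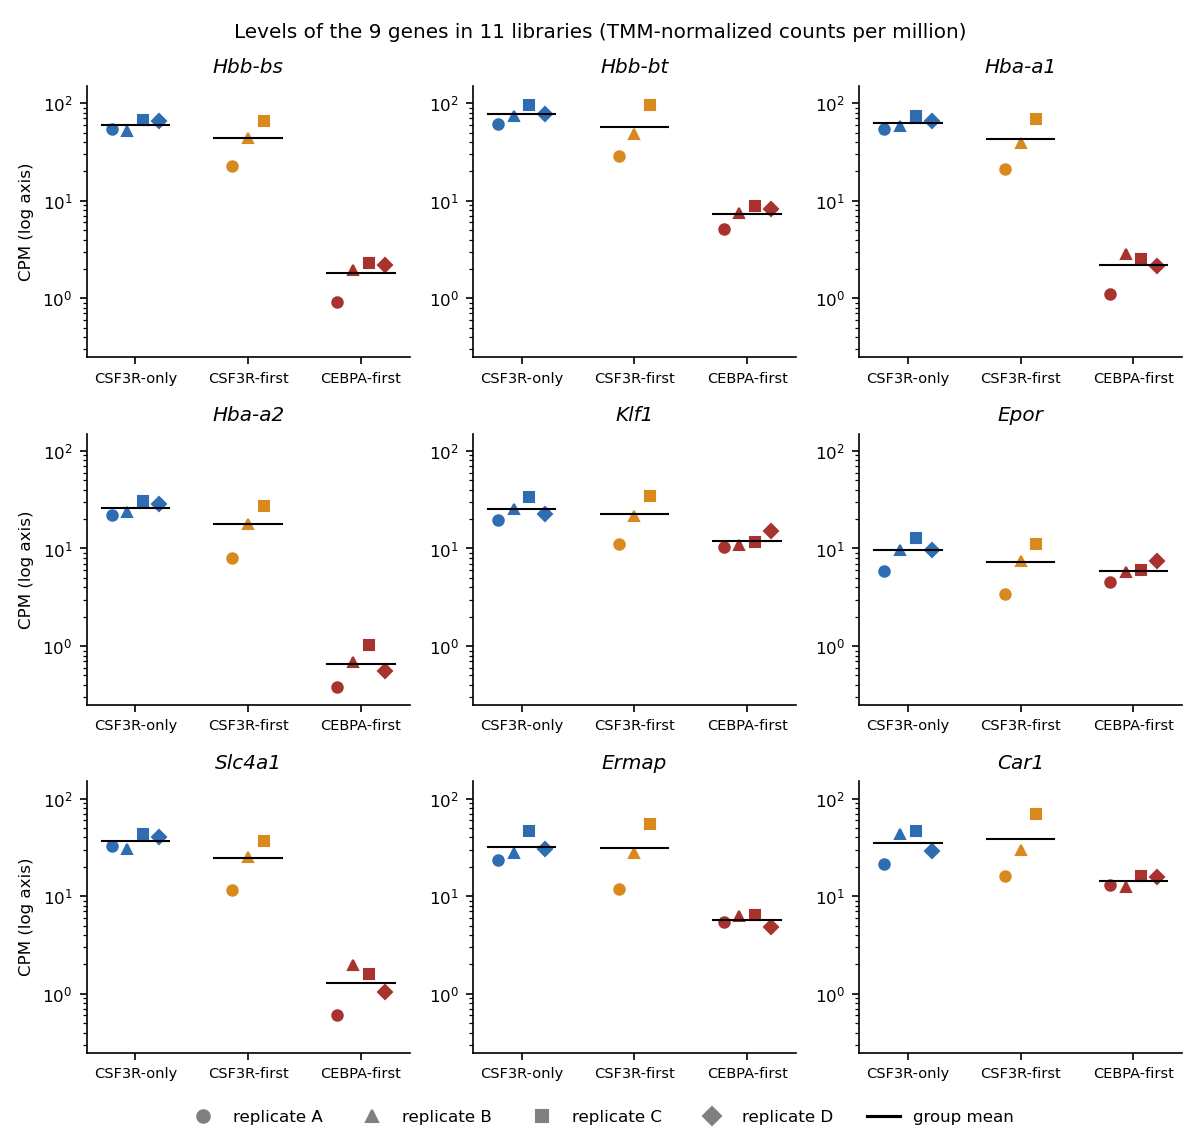
Levels of the 9 genes in the 11 libraries, in TMM-normalized CPM on a log axis, with one panel a gene, one symbol a replicate and a black bar at the group mean. CEBPA-first lies apart and lowest for the 4 globins, Slc4a1 and Ermap, and close to or within the other groups for Klf1, Epor and Car1.

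Counted over the group, 8 of the 9 genes were lower in CEBPA-first when set against CSF3R-only, at an edgeR adjusted p under 0.05, and none was higher. Among the 15703 genes tested, 36.6% were lower and 35.4% higher by the same rule. For 8 of the 9 the libraries of the groups did not overlap, where 34.5% of tested genes were lower without overlap. With a log2 fold change of -1 or less required as well, 8 of the 9 genes passed, against 19% of those tested. The median log2 fold change of the 9 was -3.38, and that of all tested genes -0.0045. Against CSF3R-first, 8 of the 9 were lower (24.3% of tested genes, with 24% higher), 7 did not overlap (24.8%), and 7 passed with the fold required too (10.3%). The median was -2.97, and 0.0005 over all tested genes. The comparisons share the CEBPA-first libraries and are not independent of each other.

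In CSF3R-first against CSF3R-only, 0 of the 9 genes were called, while 21.1% of tested genes were lower and 21.6% higher. DESeq2 also called 0 of them, 0 had an unadjusted p under 0.05, and 0 were without overlap (21.4% of tested genes were lower without overlap). The log2 fold changes ran from -0.58 for Slc4a1 to 0.13 for Car1. Their intervals were wide, as for Hbb-bs (95% interval -0.99 to 0.13), so the genes are not shown to be alike in these groups. Without CSF3R-first replicate C, 5 of the 9 genes were called lower, with values for the 4 globins and Slc4a1 from -1.03 to -0.82.

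**Figure D2:**
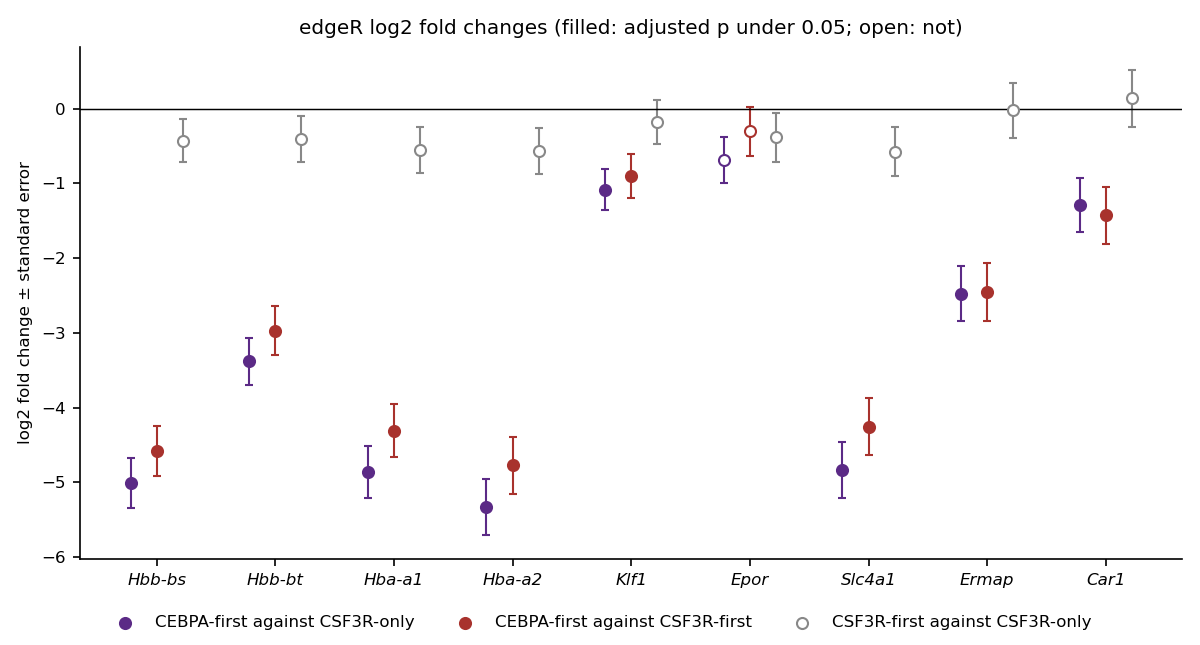
Log2 fold changes of the 9 genes in the 3 comparisons, with standard errors from edgeR; filled points had an adjusted p under 0.05. The values for CEBPA-first run from -5.33 (Hba-a2) to -0.31 (Epor), and those for CSF3R-first against CSF3R-only lie between -0.58 and 0.13.

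The order of the genes was not the same in all groups. Levels are given here in CPM per kilobase of exon, which takes gene length into account. The places of single globin copies stay uncertain, because the assignment of their shared reads is not known. CSF3R-only had Hbb-bt first at 109 ± 21.1 (SD, n = 4), then Hba-a1 at 77.6 ± 11.1 and Hbb-bs at 77.5 ± 9.55, then Hba-a2 at 39.1 ± 6.00, Car1 at 28.1 ± 9.58 and Klf1 at 16.6 ± 4.04. Slc4a1, Ermap and Epor followed at 7.47 ± 1.28, 6.03 ± 1.88 and 4.80 ± 1.44. Hba-a1 and Hbb-bs did not differ beyond their spread, and neither did neighbours among the last 3. CSF3R-first kept Hbb-bt first and Epor last, with SDs so large (48.6 for a mean of 82.1 in Hbb-bt) that most neighbours could not be ordered. In CEBPA-first, Car1 at 11.5 ± 1.497 and Hbb-bt at 10.5 ± 2.31 led without differing beyond their spread, and Klf1 came next at 7.81 ± 1.41. Epor at 2.97 ± 0.606, Hba-a1 at 2.68 ± 0.947 and Hbb-bs at 2.39 ± 0.813 followed and overlapped. Ermap at 1.09 ± 0.137 and Hba-a2 at 0.984 ± 0.407 also overlapped, and Slc4a1 was last at 0.265 ± 0.123.

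Ratios between the genes put numbers on this change. They were chosen after the levels had been seen, and 9 ratios in 3 comparisons gave 27 exact permutation tests, in which no p can go below 0.0286. After Benjamini-Hochberg adjustment over the 27 tests none was under 0.05, and the smallest adjusted p was 0.055. Hbb-bt made up 52.7, 58.6, 59.2 and 54.1% of β-globin counts in CSF3R-only and 56.2, 52.6 and 59.1% in CSF3R-first, but 84.6, 79.1, 79.3 and 79.0% in CEBPA-first. The difference of CEBPA-first was 24.4 and 24.6 percentage points (exact permutation p = 0.0286 for each), and its 4 libraries were above all 7 others. How reads from the shared stretches were assigned can change this share, and its part in the difference was not tested. Hba-a2 made up 28.8 to 30.1%, 27.1 to 31.3% and 19.1 to 28.5% of α-globin counts, with overlap between CEBPA-first and CSF3R-first.

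There were 0.641 to 0.666 α-globin counts for each β-globin count in CSF3R-only. CSF3R-first had 0.569 to 0.619 and CEBPA-first 0.248 to 0.379, and the 3 groups did not overlap (exact permutation p = 0.0286 for each pair, adjusted 0.055). Against Hbb-bs alone, however, the α-globin counts were 1.39 to 1.57, 1.30 to 1.44 and 1.23 to 1.82 in the same order, with overlap throughout. This last ratio rests on the split of reads between the β-globin copies, and the overlap of so few libraries does not show that it was the same in all groups. Both ratios could also change if shared reads were left uncounted, which was not tested.

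For each count of Klf1 there were 7.89 to 10.6 globin counts in CSF3R-only, against 7.004 to 7.43 for CSF3R-first and 0.729 to 1.27 for CEBPA-first, so that the globins fell beyond Klf1 in all 4 CEBPA-first libraries (exact permutation p = 0.0286 against each other group). The same held for Slc4a1 (1.18 to 1.80, 1.05 to 1.18 and 0.0582 to 0.180 counts per Klf1 count) and for Ermap (1.09 to 1.36, 1.06 to 1.58 and 0.323 to 0.571). Car1 per Klf1 count was at 1.08 to 1.71, 1.397 to 2.0 and 1.05 to 1.393, so that CEBPA-first overlapped CSF3R-only but lay just below CSF3R-first (exact permutation p = 0.057, adjusted 0.10). Epor moved the other way, with 0.299 to 0.435 counts per Klf1 count in CSF3R-only, against 0.306 to 0.348 for CSF3R-first and 0.438 to 0.528 for CEBPA-first. CEBPA-first again did not overlap the rest, but its lowest library lay only just above the highest of CSF3R-only.

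**Figure D3:**
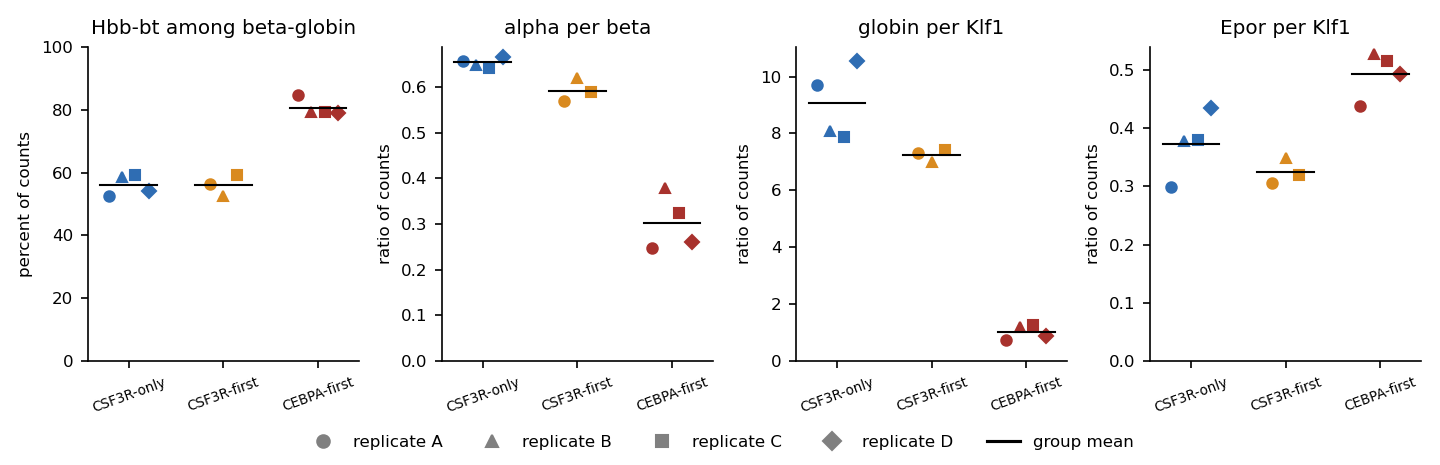
Hbb-bt in percent of β-globin counts, and counts of α-globin per β-globin, of the 4 globins per Klf1 and of Epor per Klf1, in each of the 11 libraries; symbols are replicates and bars are group means. CEBPA-first does not overlap either other group in any of the 4 panels, though only narrowly for Epor per Klf1. Its Hbb-bt share is 79.0 to 84.6%.

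The 9 genes also moved together from library to library. In CSF3R-first, replicate A was the lowest and replicate C the highest for all 9, and the highest was 2.93 (Hbb-bs) to 4.66 times (Ermap) the lowest. Over all tested genes, 16.5% had this pattern in this group. In CSF3R-only, replicate C was the highest for 9 of 9 (21.0% of tested genes) and replicate A the lowest for 7 of 9 (35.5%). In CEBPA-first, replicate A was the lowest for 7 of 9 (18.7%) and replicate C the highest for 5 of 9 (23.3%). The coefficient of variation of the 9 genes had a median of 54.2% in CSF3R-first, 19.3% in CSF3R-only and 22.01% in CEBPA-first, against 13.1%, 10.1% and 8.79% over all tested genes. The summed level of 13 erythroid markers, 7 of them among the 9 genes, ran with this from 535 CPM in CSF3R-first replicate A to 1270 in replicate C, a range that holds the 665.5 to 751 CPM of CEBPA-first. Car2 and Tfrc made up most of that sum, and Tfrc was higher in CEBPA-first against CSF3R-only. The megakaryocyte sum was likewise lowest in A and highest in C of that group (375 and 596 CPM), as was the mast cell and basophil sum (1402 and 1745 CPM). The neutrophil, monocyte and eosinophil sums of CSF3R-first were instead highest in A (27890, 6751 and 139.7 CPM) and lowest in B. Replicate A was also the farthest from the others by counts over all genes (chi-square per degree of freedom 104.4 and 79.84 against B and C, and 23.73 between B and C). The part of these differences in the pattern of the 9 genes was not tested. The letters name replicates in the labels, and whether the same letter marks the same marrow is not given.

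After the group means were taken off, Pearson's r on log2 CPM between pairs of the 9 genes ran from 0.57 (Slc4a1 with Car1) to 0.97, with a median of 0.88 over 36 pairs. The 11 libraries behind each r share the sort and culture of their groups, and the values are descriptions. Among the genes outside the 9 whose log2 CPM was most like the mean of the 9 over the 11 libraries were Tspan33 (r = 0.996), Rhag (0.994), Hemgn (0.993) and Cldn13 (0.990). With group means taken off they included Hemgn (0.990), Tspan33 (0.980), Slc43a1 (0.969) and Bpgm (0.966). Rhag encodes a red cell surface protein, Hemgn a nuclear protein of erythroid precursors and Bpgm the enzyme that makes bisphosphoglycerate. For Car1 alone, the most alike across libraries were 1700063H04Rik (0.976), Gstm5 (0.972), Ptdss2 (0.966), Erfe (0.964) and Fgfrl1 (0.961). With group means taken off they were Pfkm (0.984), March3 (0.979), Gimap1 (0.977), Pyurf (0.973) and Gstm5 (0.970).

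**Figure D4:**
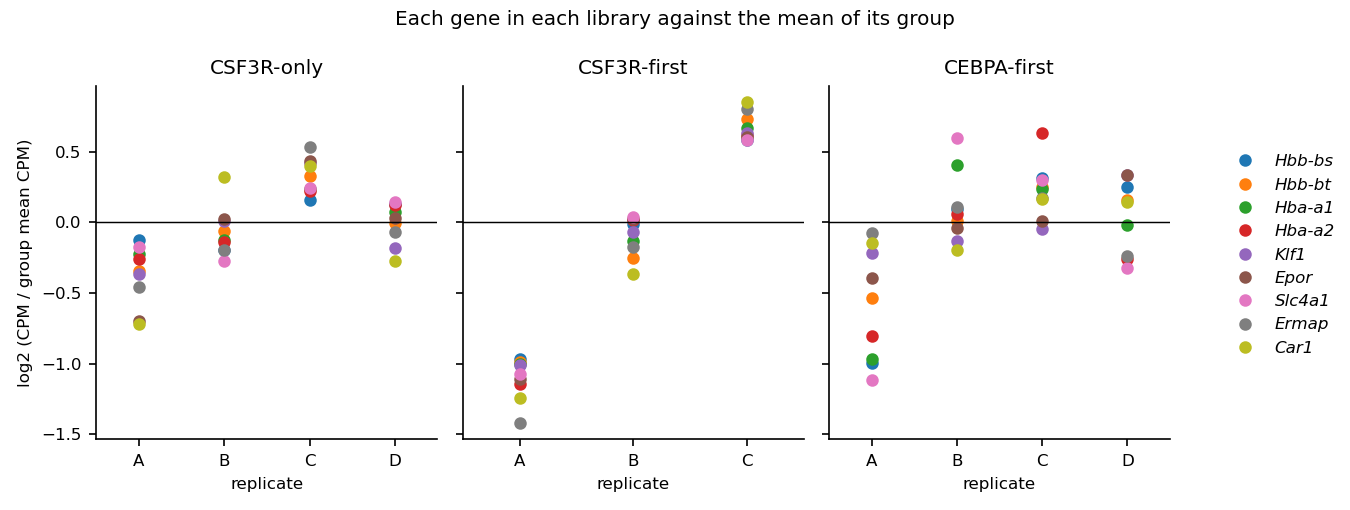
Each of the 9 genes in each library as log2 of its CPM over the mean CPM of its group, with one panel a group and one color a gene. In CSF3R-first all 9 points are below the mean in replicate A and above it in replicate C.

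Other genes of the red cell were read from lists, and their counts stand beside the shares of all tested genes: 36.6% lower and 35.4% higher in CEBPA-first against CSF3R-only, 24.3% and 24% against CSF3R-first, and 21.1% and 21.6% in CSF3R-first against CSF3R-only. Among 20 genes of the red cell membrane and its skeleton, 18 were tested, and 16 were lower and 1 higher in CEBPA-first against CSF3R-only, with a median log2 fold change of -2.09. The lower ones included Rhd (-3.84), which carries the Rhesus antigen, Sptb (-3.18), the β-spectrin of the skeleton, and the water channel gene Aqp1 (-3.14; edgeR adjusted p of 5.8e-07, 2.4e-06 and 1.9e-05). Xk, the membrane partner of the Kell protein, was higher (1.36, edgeR adjusted p = 1.4e-06). Against CSF3R-first, 13 were lower and 1 was higher (median -1.49). In CSF3R-first against CSF3R-only, 2 of the 18 were lower, a smaller share than the 21.1% of all tested genes, namely Cd59a (-1.60) and the urea transporter gene Slc14a1 (-1.33), and Xk was higher (0.77). Without CSF3R-first replicate C this count of lower genes was 6.

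Of the 14 factors that specify or serve the erythroid program, 8 were lower and 4 higher in CEBPA-first set beside CSF3R-only (36.6% and 35.4% of all tested genes), and their median of -0.61 was far smaller in size than that of the membrane genes. Klf3 (-1.52), Sox6 (-1.34) and Gfi1b (-1.07) fell most, and Lmo2 (1.08), Cbfa2t3 (0.55) and Ikzf1 (0.22) rose (edgeR adjusted p from 7.0e-08 to 0.0081 for these 6). Against CSF3R-first, 5 were lower and 1 was higher, the latter again Lmo2 (0.40), and without CSF3R-first replicate A there were 8 lower. In CSF3R-first against CSF3R-only, 4 of the 14 were lower, with Gata2 (-0.60) the lowest, and 1 was higher, where 21.1% of all tested genes were lower and 21.6% higher.

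Erythropoietin signalling beyond its receptor was mixed. Epo itself had no count in any library. Of 13 other genes tested, 10 were lower and 2 higher in CEBPA-first against CSF3R-only (median -0.96), where 36.6% of all tested genes were lower and 35.4% higher. The survival gene Bcl2l1 (-1.46), the feedback inhibitor gene Socs3 (-1.41) and Id1 (-1.34) fell most, while Socs2, another feedback inhibitor, rose by 3.97 and the kinase gene Pim1 by 0.69 (edgeR adjusted p at most 6.2e-07 for these 5). These genes answer to other cytokine receptors too, CSF3R included, and are active in myeloid cells. Against CSF3R-first 8 were lower and 2 higher (24.3% and 24% of all tested genes), and in CSF3R-first against CSF3R-only 10 were lower and 2 higher (21.1% and 21.6%). The last count of lower genes was 6 without CSF3R-first replicate B and 5 without replicate C.

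Heme synthesis and iron uptake split by gene. Of 16 genes, 10 were lower and 2 higher in CEBPA-first against CSF3R-only (median -0.42), beside 36.6% and 35.4% of all tested genes. Alas2, the erythroid form of the first enzyme of heme synthesis, had a log2 fold change of -5.0, near those of the globins, with 13.5 ± 2.69 CPM for CSF3R-only and 0.427 ± 0.215 CPM for CEBPA-first (mean ± SD, n = 4 each; edgeR adjusted p = 2.9e-07). The ubiquitous form Alas1 (-1.57) and the ferritin gene Fth1 (-2.09) fell, while the transferrin receptor gene Tfrc (0.74) and the iron transporter gene Slc11a2 (0.35) rose. Against CSF3R-first, 10 were lower and 1 was higher. In CSF3R-first against CSF3R-only, 4 of the 16 were lower, near the 21.1% of all tested genes, and 0 were higher by edgeR, where DESeq2 called 1 higher.

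Among 16 matched genes for enzymes and late erythroid functions, 13 were lower and 2 higher in CEBPA-first against CSF3R-only (median -1.03), beside 36.6% and 35.4% of all tested genes. Trim10, a ubiquitin ligase of late precursors, fell from a mean of 2.94 CPM to 0.0693 CPM, near the level that a count of 0 allows, so that no fold is given. Trim58 (-2.83) and the biliverdin reductase gene Blvrb (-2.55) also fell (edgeR adjusted p at most 3.4e-06), and Ube2o (0.69) and Xpo7 (0.57) rose. Against CSF3R-first, 12 were lower and 2 higher (24.3% and 24% of all tested genes), and in CSF3R-first against CSF3R-only 9 were lower and 1 was higher (21.1% and 21.6%). In the last comparison the log2 fold change of Trim58 was -1.19 and that of Trim10 was -1.05.

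**Figure D5:**
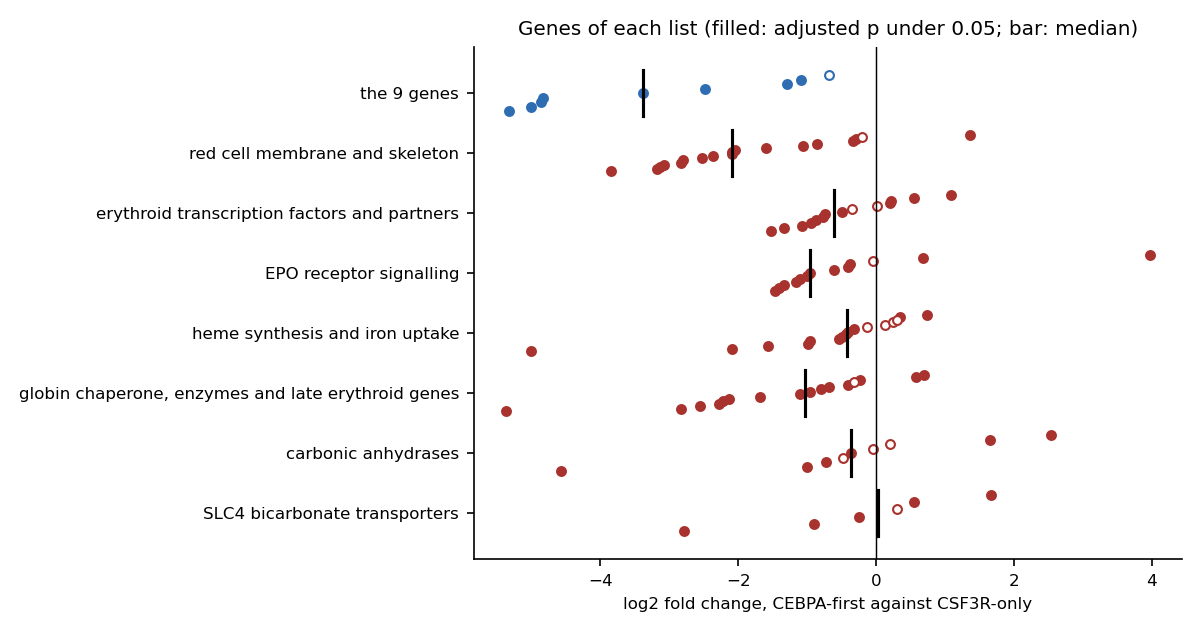
Log2 fold changes of CEBPA-first against CSF3R-only for the 9 genes and for the tested genes of 7 lists; filled points had an edgeR adjusted p under 0.05 and bars are medians. The median is -3.38 for the 9 genes, -2.09 for membrane and skeleton genes and -0.61 for transcription factors.

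The families of Car1 and Slc4a1 were read in the same way, beside the 36.6% lower and 35.4% higher among all tested genes. Of 15 other carbonic anhydrase genes, 9 were tested, with 4 lower and 2 higher in CEBPA-first against CSF3R-only and a median of -0.36. Car8 (-1.01) and Car2 (-0.73), the latter also a red cell enzyme, were among the lower, and Car3 (2.54) and Car12 (1.66) were higher. Car4 was lower too, at means of 0.243 CPM in CSF3R-only and 0.0096 CPM in CEBPA-first, where some libraries had no count. The mean of Car3 was under 1 CPM in every group. Of 9 other SLC4 bicarbonate transporter genes, 6 were tested, with 3 lower and 2 higher (median 0.02). Slc4a3 was lower, at means of 0.427 CPM in CSF3R-only and 0.0597 CPM in CEBPA-first, where a library had no count, and Slc4a8 (1.67) was higher. The 3 lower SLC4 genes became 1 without the filter on low counts and 1 with a minimum of 10 counts in every sample. Against CSF3R-first, 1 carbonic anhydrase gene was lower and 2 were higher, and 1 SLC4 gene was lower and 2 were higher. In CSF3R-first against CSF3R-only the counts were 1 and 1 for carbonic anhydrases and 0 and 1 for SLC4 genes. Calls in these lists used edgeR with Benjamini-Hochberg adjustment over all 15703 genes.

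Embryonic globins were near the limit of detection. Hbb-y and Hbq1a had at most 4 counts in a library, Hbb-bh1 at most 1, and Hbb-bh2 and Hba-x had none, where a count of 0 allows up to 0.0383 to 0.0648 CPM in these libraries by counting error alone. Of the minor globins, Hbq1b passed the filter and had 0.808 ± 0.151 CPM for CSF3R-only (mean ± SD, n = 4), 0.531 ± 0.332 CPM for CSF3R-first (n = 3) and 0.0469 ± 0.0238 CPM for CEBPA-first (n = 4), which is under the level that a count of 0 allows in some libraries. It was lower in CEBPA-first than in each other group (edgeR adjusted p = 1.0e-05 and 0.00031), and no fold is given because single CEBPA-first libraries held as few as 1 count.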

How the data were processed

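RNA was sequenced as 100-base single reads from SMARTer low-input libraries. The authors used Trimmomatic for trimming and STAR for alignment to mm10, and what they deposited are raw counts of each gene in each library. The counting tool and its use of strand are not given in the sources used here. The 9 genes, the lists and the tests were chosen with earlier results of these data known.

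Counts were filtered with filterByExpr (15703 genes left), scaled by TMM and tested in edgeR 4.0.16 (R 4.3.3) by the quasi-likelihood test in 1 fit of the 3 groups without covariates, with Benjamini-Hochberg adjustment over all genes tested. Calls had an adjusted p under 0.05. A standard error is the log2 fold change over the square root of F. Log2 CPM for correlations used a prior count of 2. Sums and ratios were compared by exact permutation tests in scipy 1.17.1. Named list genes were those among the 3 largest and 3 smallest log2 fold changes called per list and comparison; like genes were the 5 with the highest Pearson's r, of which some are not reported here. Alternatives were DESeq2 1.42.0, other scalings and filters, only 2 groups in the fit, a replicate block, globin copies added together, and each sample left out. Libraries within a group were further apart than counting noise allows (chi-square per degree of freedom 9.50 to 104 over 15 pairs). Nothing says that they came from separate animals, so p-values measure the spread between these samples. The pipeline was tested on simulated data. PCR duplicates without molecular identifiers are not independent molecules, so limits cover counting error only. Ahsp was not analysed here.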

Additional observations from a re-analysis of the deposited data

Results flagged for a closer look

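No library stood apart from the others of its group in the 20 groups of 4 libraries tested for outliers (the 9 genes and the globin sum, in CSF3R-only and CEBPA-first). The CSF3R-first libraries are too few for this test.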

How the results depend on the processing

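The number of genes called stayed at 8 or 9 of 9 in CEBPA-first against CSF3R-only and at 6 to 8 in CEBPA-first against CSF3R-first under every alternative run, or at 6 of 7 where globin copies were added together. The calls that changed were those of Epor, Klf1 and Car1. Without CSF3R-first replicate C, Klf1 and Car1 were no longer called against CSF3R-first and the log2 fold change of Epor was 0.12 there (-0.64 to 0.12 over the samples left out). In CSF3R-first against CSF3R-only the count was 0 under the alternatives other than a replicate block, which called 4 lower (Hbb-bt, Hba-a1, Hba-a2 and Slc4a1, adjusted p from 0.011 to 0.028), and the omission of single samples, with 0 to 5 called (5 without CSF3R-first replicate C). With the 4 globin genes as 1 row in edgeR, the globin sum of this comparison was -0.57 (adjusted p = 0.015) with the replicate block and -0.47 (adjusted p = 0.23) without it. Its exact permutation p ran from 0.171 to 0.343 under the other scalings and sums. The labels do not say that a letter marks shared marrow, and the samples were not treated as paired because no comparison had every same-letter correlation of deviations from group means over 0.1. These ran from -0.11 to 0.36 and all but that of replicate C between CEBPA-first and CSF3R-first were above 0. Samples were not always closest to their own letter: CSF3R-first replicate C had 0.33 with CSF3R-only replicate D and 0.12 with replicate C. Near 0, directions turned in CSF3R-first against CSF3R-only: Ermap was at 0.02 without the filter, at 0.20 without CSF3R-only replicate C, and from -0.67 to 0.37 over all samples left out; Car1 was at -0.024 with the replicate block and from -0.58 to 0.50 with samples left out; and Klf1 was from -0.63 to 0.14 with samples left out, the latter without CSF3R-first replicate A. Leaving out 1 sample moved the globin sum from -4.30 to -4.0, from -4.01 to -3.18 and from -1.0 to -0.19 in the 3 comparisons. The ratios, an analysis added after their values were seen, moved by less than 1 SD. A group mean always moves by less than 1 SD of its group when 1 library is left out, so this does not measure their stability. The replicate block also raised the number of genes lower in CSF3R-first against CSF3R-only to 5 for the membrane list and to 7 for the transcription factors. Counts of called list genes moved by over 1.5 times in 5, 18 and 20 of 304 values in the 3 comparisons. The cause of these changes was not tested. Hbb-bs, Hba-a1 and Hba-a2 had only 22 to 171 counts per CEBPA-first library, which limits the precision of their fold changes.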
